A study of Mus musculus with 24 samples.

Results

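Meiotic chromosomes are built and recombined by proteins that mitosis does not need, and 10 mouse genes for such proteins are described here across embryonic stem cells (ESCs) with and without Polycomb repressive complex 1 (PRC1). They are the synaptonemal complex genes Sycp1, Sycp2 and Sycp3, the axis gene Hormad1, the meiotic cohesin genes Smc1b, Stag3 and Rec8, the recombination genes Spo11 and Dmc1, and Stra8, a regulator of meiotic entry. They were chosen by symbol from a table of spike-in calibrated RNA-seq (cRNA-seq), 10 of 19409 symbols among 20633 transcripts. Each symbol had 1 row, and all 10 passed the filter of at least 10 reads in at least 3 libraries, which left 16940 transcripts for testing. The study compared loss of PRC1 with loss of its catalytic activity alone. There were 12 libraries, 3 from each of 4 conditions. The study's methods call replicates biological, but the sources used here do not say whether the 3 were separate cultures, and p-values measure the spread between these libraries.

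PRC1CKO cells carry Ring1a-/-; Ring1bfl/fl; Rosa26::ERT2-Cre, and so lack RING1A before any treatment and lose RING1B once the Cre is active. PRC1CPM cells carry Ring1aI50A/D53K and Ring1b(WT->I53A/D56K)fl/fl with the same Rosa26::ERT2-Cre, and so hold mutant RING1A from the start and exchange wild-type for mutant RING1B once the Cre is active. The Cre is expressed from the Rosa26 locus in all 4 conditions. Treated cells of either line received 800 nM 4-hydroxytamoxifen (OHT), which activates it, for 72 h. Untreated cells did not receive OHT. Both lines are male E14 ESCs, and each is a single clone (B9 for PRC1CKO, 41 for PRC1CPM), so that the effect of the genotype and that of the clone cannot be told apart in a comparison between the lines.

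In meiosis, cohesin rings that contain SMC1B, STAG3 and REC8 hold sister chromatids together. Each pair of sisters is folded along an axis that contains SYCP2, SYCP3 and HORMAD1, and SYCP1 then joins homologous axes into the synaptonemal complex. SPO11 breaks the DNA, and DMC1 directs repair to the homologous chromosome. STRA8, which is induced by retinoic acid, switches meiotic genes on in the germ line. In ESCs, a variant complex, PRC1.6, represses germline genes and binds promoters through E2F6 and MGA, whose partner MAX recognises the E-box.

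Promoter sequences of the 3 genes that responded in both lines are printed first, with that of Hormad1, because they differ in the motifs of these factors. RefSeq promoters (GRCm38.p6, the assembly behind mm10) cover 250 bases before and 50 bases after the annotated start and were matched by symbol for 9 of the 10 genes, Spo11 being the exception. Capitals mark the E2F motif TCCCGC and the E-box CACGTG, each searched on both strands. The window of Sycp1 is chr3:102936051-102936350 (minus strand), that of Sycp2 chr2:178407609-178407908 (minus strand), that of Stra8 chr6:34920698-34920997 (plus strand) and that of Hormad1 chr3:95559427-95559726 (plus strand), all printed 5′ to 3′ on the strand of the gene.
Sycp1: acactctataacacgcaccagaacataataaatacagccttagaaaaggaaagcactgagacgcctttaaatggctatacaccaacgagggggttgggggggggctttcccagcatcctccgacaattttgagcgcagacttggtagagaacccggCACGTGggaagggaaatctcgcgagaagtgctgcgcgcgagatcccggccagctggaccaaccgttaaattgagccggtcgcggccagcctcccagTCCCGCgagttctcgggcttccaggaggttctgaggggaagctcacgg
Sycp2: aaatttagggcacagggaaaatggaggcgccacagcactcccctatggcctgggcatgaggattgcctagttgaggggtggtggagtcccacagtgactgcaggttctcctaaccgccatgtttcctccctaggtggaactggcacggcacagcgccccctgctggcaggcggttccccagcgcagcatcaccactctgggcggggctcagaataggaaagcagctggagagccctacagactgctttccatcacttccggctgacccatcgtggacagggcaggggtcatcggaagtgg
Stra8: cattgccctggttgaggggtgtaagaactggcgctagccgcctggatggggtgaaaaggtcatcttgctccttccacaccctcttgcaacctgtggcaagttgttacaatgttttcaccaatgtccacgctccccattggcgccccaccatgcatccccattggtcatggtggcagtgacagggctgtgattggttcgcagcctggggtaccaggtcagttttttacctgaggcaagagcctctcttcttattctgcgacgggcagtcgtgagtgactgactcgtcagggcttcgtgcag
Hormad1: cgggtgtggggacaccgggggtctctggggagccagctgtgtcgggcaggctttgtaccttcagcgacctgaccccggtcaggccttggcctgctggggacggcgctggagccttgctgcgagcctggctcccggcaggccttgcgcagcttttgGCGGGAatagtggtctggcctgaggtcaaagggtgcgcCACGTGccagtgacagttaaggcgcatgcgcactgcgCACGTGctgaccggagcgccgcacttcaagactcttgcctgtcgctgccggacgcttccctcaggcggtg
Sycp1 held 1 E2F motif and 1 E-box, and Hormad1 held 1 E2F motif and 2 E-boxes. In the windows of Sycp2 and Stra8 the letters of neither motif were found.

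An E2F motif was found in 7 of the 9 promoters (Sycp1, Sycp3, Smc1b, Stag3, Hormad1, Rec8 and Dmc1), and in 20.0% of all 32851 RefSeq promoters of the same length. An E-box was found in 4 (Sycp1, Sycp3, Stag3 and Hormad1), and in 7.15% of all promoters. The same 4 held both motifs, as did 1.99% of all promoters. Thus, of the 3 genes that responded in both lines, Sycp1 had both motifs and Sycp2 and Stra8 had neither. Sycp3, Stag3 and Hormad1 had both and were not called after treatment. When the search covered only the 200 bases before the start, 5 promoters held an E2F motif and 4 an E-box. The shares over all promoters were then 15.0% and 5.26%. Fewer promoters held the E2F motif because that of Sycp1 lies just after the start and that of Stag3 spans it. GC content ran from 55.7% (Stra8) to 69% (Dmc1), with a median of 52.7% over all promoters. CpG dinucleotides ran from 10 in Sycp2 and Stra8 to 30 in Stag3, with a median of 7 over all promoters. The motif shares over all promoters were not matched for GC or CpG content.

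**Figure D1:**
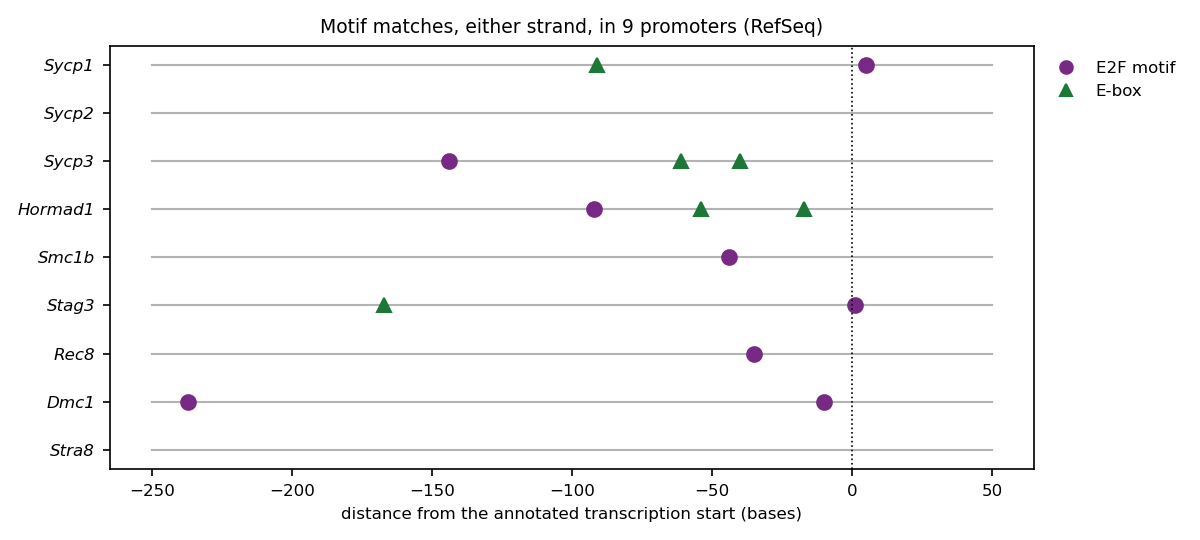
Matches to the E2F motif (circles) and the E-box (triangles) on either strand, by distance in bases from the annotated transcription start (dotted line), in the promoters of 9 genes (grey lines, the bases searched). The 7 rows other than Sycp2 and Stra8 hold an E2F motif, and the rows of Sycp1, Sycp3, Hormad1 and Stag3 also hold an E-box.

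Libraries held from 14668159 to 27016156 reads on transcripts. Ring1, which encodes RING1A, had normalised read counts of 228 ± 76.3 (SD, n = 3) in untreated and 254 ± 26.4 in OHT-treated PRC1CKO cells, and of 162 ± 32.2 and 140.1 ± 25.8 in PRC1CPM cells. Rnf2, which encodes RING1B, had 1526 ± 201 and 1546 ± 50.8 in PRC1CKO cells and 1696 ± 139.8 and 1511 ± 214 in PRC1CPM cells. Reads were counted over whole transcripts, so these values check neither the deleted nor the exchanged exon. The mean normalised read count over all rows ran from 854 to 1264 between libraries, and within untreated PRC1CKO cells it was 1210 in replicate 1 against 854 and 861 in the others. This spread of scale enters the error of every gene below. In bulk RNA, a change in the share of cells that transcribe a gene and a change in RNA per cell cannot be told apart.

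Transcripts of Sycp1, Sycp2 and Stra8 rose after OHT treatment in both lines, and those of the other 7 genes were not called in either. The rise of Sycp1 was 6.78-fold in PRC1CKO and 2.83-fold in PRC1CPM cells. That of Sycp2 was 4.70-fold and 3.91-fold, and that of Stra8 1.93-fold and 2.60-fold. A transcript was called when limma gave an adjusted p under 0.05 (Benjamini-Hochberg over 16940 transcripts) and a change over 1.5-fold, on the scale of log2(normalised read count + 1). In PRC1CKO cells 3 of 10 genes were called higher, beside 16.5% of all transcripts, and in PRC1CPM cells 3 of 10, beside 13.1%. None was called lower, beside 3.09% and 1.4% of all transcripts. With the replicate number as a block, in PRC1CPM cells 4 of the 10 and 3033 of all transcripts were called higher, and 461 lower in place of 237. At an unadjusted p under 0.05, limma gave 3 higher and 1 lower (Smc1b) in PRC1CKO cells, beside 28.1% of all transcripts in either direction. In PRC1CPM cells it gave 4 higher (Rec8 added) and 1 lower (Smc1b), beside 22.9%. DESeq2 gave 2 lower in PRC1CPM cells at that threshold (Smc1b and Sycp3). Under the rule for calls, edgeR and DESeq2 also called 3 higher and 0 lower in each line. The OHT-treated and untreated libraries did not overlap for the 3 called genes in either line, beside 22.1% of all transcripts in PRC1CKO and 18.7% in PRC1CPM cells in that direction. In the other direction they did not overlap for Sycp3 in PRC1CKO cells (8.52% of all transcripts) and for Sycp3 and Smc1b in PRC1CPM cells (3.7%). Over the 10 genes the median log2 fold change came to -0.02 in PRC1CKO and 0.29 in PRC1CPM cells, beside 0.12 and 0.10 over all transcripts tested.

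**Figure D2:**
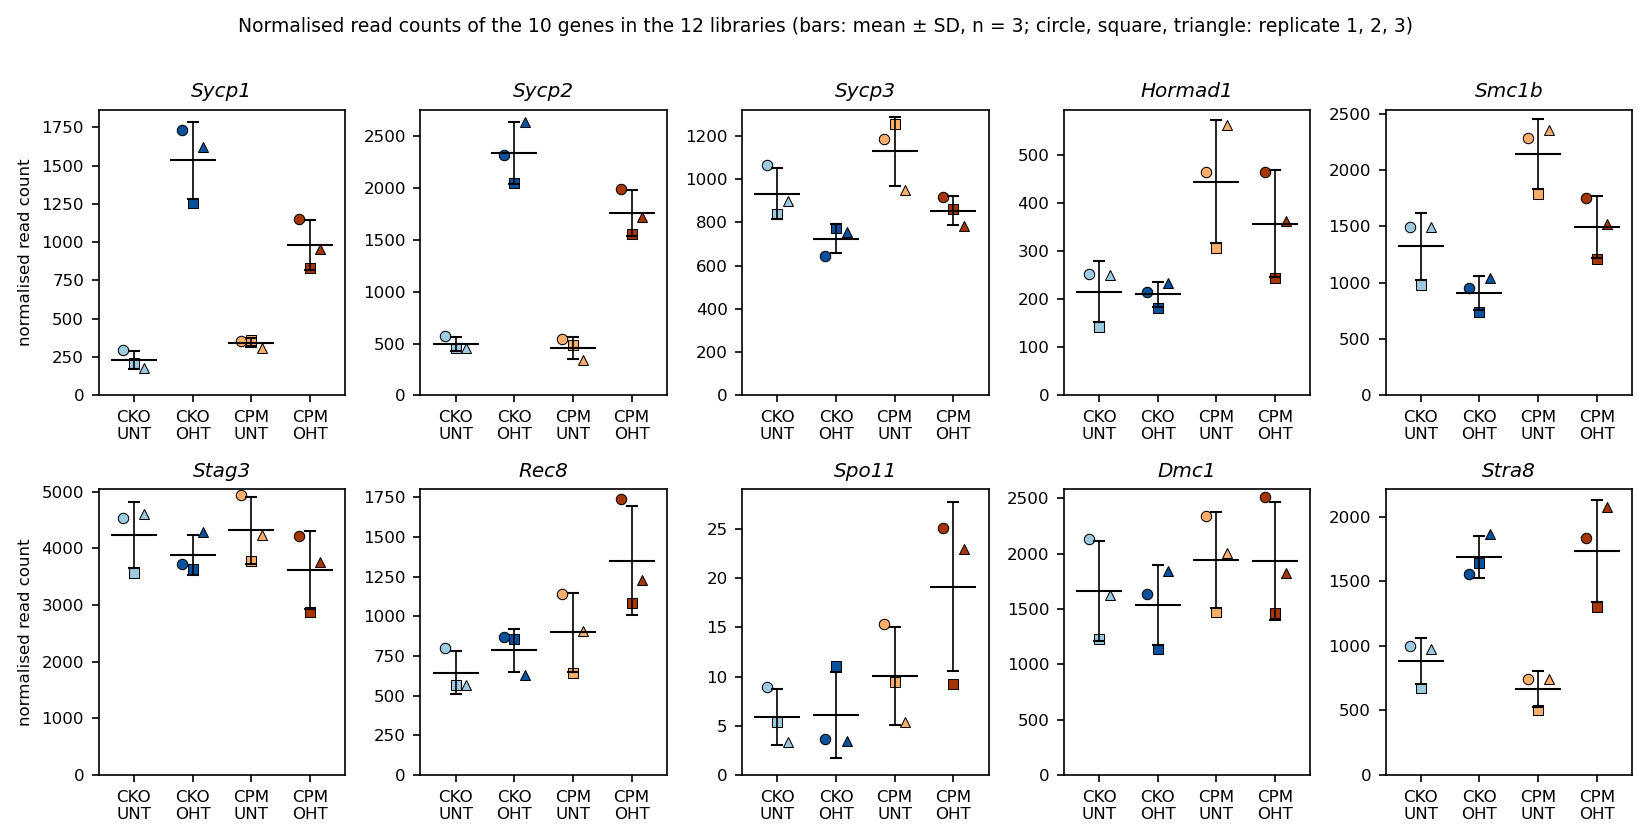
Normalised read count (vertical axes, from 0 and scaled for each gene) in each library of the 4 conditions (CKO and CPM, the lines; UNT, untreated; OHT, treated), with bars for the mean and SD of 3 replicates. All OHT-treated libraries stand above all untreated libraries of their line for Sycp1, Sycp2 and Stra8, and below them for Sycp3.

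Sycp1 encodes the transverse filament that bridges paired chromosomes (NM_011516, 33 exons, chr3:102818499-102936100, minus strand, coordinates in mm10 as for the genes below). Its normalised read counts in PRC1CKO cells were 295, 210 and 180 untreated and 1729, 1253 and 1621 with OHT. In PRC1CPM cells they were 358, 361 and 312 untreated and 1154, 831 and 957 with OHT. The OHT-treated libraries were above the untreated ones in both lines, and each OHT-treated PRC1CPM library was below each OHT-treated PRC1CKO library. The log2 fold change was 2.76 ± 0.25 (SE, limma, adjusted p = 5.0e-13) in PRC1CKO and 1.501 ± 0.25 (adjusted p = 6.0e-06) in PRC1CPM cells.

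Sycp2 encodes a component of the chromosome axis (NM_177191, 44 exons, chr2:178345296-178407658, minus strand). In PRC1CKO cells its normalised read counts were 573, 460 and 456 untreated and 2321, 2048 and 2641 with OHT. The PRC1CPM libraries had 542, 483 and 340 untreated and 1992, 1557 and 1723 with OHT. Treated and untreated libraries were far apart in both lines, while the untreated libraries of the lines overlapped. Its log2 fold change was 2.23 ± 0.23 (limma, adjusted p = 3.3e-11) in PRC1CKO and 1.97 ± 0.23 (adjusted p = 3.1e-09) in PRC1CPM cells.

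Sycp3, whose product builds the axis together with SYCP2, was not called (NM_011517, 9 exons, chr10:88459587-88473236, plus strand). Normalised read counts were 1064, 837 and 901 in untreated and 646, 772 and 756 in OHT-treated PRC1CKO cells. In PRC1CPM cells they were 1184, 1255 and 949 untreated and 917, 861 and 785 with OHT. The OHT-treated libraries lay below the untreated ones in both lines without overlap. The log2 fold change was -0.36 (95% interval -0.81 to 0.09, limma, adjusted p = 0.317) in PRC1CKO and -0.40 (-0.85 to 0.06, adjusted p = 0.317) in PRC1CPM cells. The change in PRC1CPM cells was 1.315-fold, under the 1.5-fold rule, so that the replicate block could not add a call on the spike-in scale. The span of Sycp3 overlaps that of Chpt1, a phospholipid synthesis gene on the opposite strand, by 424 bases. Chpt1 had 764 ± 109 and 824 ± 24.1 normalised reads in untreated and OHT-treated PRC1CKO cells, and 627 ± 143 and 761 ± 214 in PRC1CPM cells. Whether reads were counted by strand is not given in the sources used here, so reads in the overlap cannot be told apart.

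Hormad1 encodes an axis protein found on chromosomes that are not yet paired (NM_001289537, 15 exons, chr3:95559677-95585798, plus strand). Its normalised read counts were 253, 142 and 249 in untreated and 215, 182 and 233 in OHT-treated PRC1CKO cells. The PRC1CPM libraries had 463, 307 and 561 untreated and 464, 244 and 363 with OHT. Treated and untreated libraries overlapped in both lines, and within each treatment the PRC1CPM libraries were the higher ones. The log2 fold change with OHT was 0.01 (95% interval -0.57 to 0.59) in PRC1CKO and -0.32 (-0.90 to 0.26) in PRC1CPM cells.

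Further genes of the synaptonemal complex and axis were read from a list, of which 6 were tested. In PRC1CKO cells 3 were called higher and 0 lower, and in PRC1CPM cells 2 and 0. Syce1 and Syce3 encode central element proteins of the complex and rose in both lines, Syce1 by log2 fold changes of 1.25 and 0.90 and Syce3 by 1.38 and 1.04. In PRC1CPM cells the call of Syce3 was lost without untreated replicate 2 or 3 or OHT-treated replicate 1 or 3 (0.88 to 1.01, adjusted p from 0.098 to 0.145), and without the filter on low reads (adjusted p = 0.0636). Hormad2, a paralogue of Hormad1, rose in PRC1CKO cells (1.06, limma, adjusted p = 0.000171), from 714 ± 87.5 to 1506 ± 325 normalised reads. In PRC1CPM cells it had 2488 ± 214 untreated and 2757 ± 571 with OHT (0.13, adjusted p = 0.849), and it was called higher there than in PRC1CKO cells both untreated and with OHT.

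None of the 3 meiotic cohesin genes was called after OHT treatment in the main fit. With the replicate number as a block, Rec8 was called higher in PRC1CPM cells (limma, adjusted p = 0.000199). Smc1b encodes the meiotic counterpart of SMC1A (NM_080470, 25 exons, chr15:85064689-85131957, minus strand). Its normalised read counts were 1499, 978 and 1495 in untreated and 950, 740 and 1040 in OHT-treated PRC1CKO cells. In PRC1CPM cells they were 2286, 1785 and 2352 untreated and 1756, 1212 and 1525 with OHT. The OHT-treated values were the lower ones, with an overlap in PRC1CKO cells, where untreated replicate 2 lay below OHT-treated replicate 3, and none in PRC1CPM cells. Its log2 fold change was -0.53 (95% interval -0.98 to -0.07, limma, adjusted p = 0.102) in PRC1CKO and -0.52 (-0.98 to -0.07, adjusted p = 0.132) in PRC1CPM cells. In PRC1CPM cells each OHT-treated library was below the untreated library of the same number. The change there was 1.435-fold, under the 1.5-fold rule, so that the replicate block could not add a call on the spike-in scale. With TMM scaling in place of the spike-in, Smc1b was called lower in both lines, at -0.65 (limma, adjusted p = 0.00292) and -0.63 (adjusted p = 0.00512). With TMM and the replicate block limma called it lower in both lines too (adjusted p = 4.5e-05 and 9.3e-05). The call was also made in PRC1CKO cells without untreated replicate 2 (-0.73, adjusted p = 0.0305).

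Stag3 encodes the meiotic counterpart of STAG1 and STAG2 (NM_016964, 34 exons, chr5:138280509-138312393, plus strand). Normalised read counts ran from 3574 to 4609 in untreated and 3635 to 4290 in OHT-treated PRC1CKO cells, and from 3775 to 4939 and 2879 to 4221 in PRC1CPM cells. These ranges overlapped, and the log2 fold changes were -0.12 (95% interval -0.53 to 0.29) and -0.26 (-0.67 to 0.15).

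Rec8 encodes a kleisin, the subunit that closes the cohesin ring (NM_020002, 20 exons, chr14:55618166-55625395, plus strand). Its normalised read counts were 803, 564 and 567 in untreated and 872, 854 and 629 in OHT-treated PRC1CKO cells. The PRC1CPM libraries had 1141, 645 and 908 untreated and 1738, 1082 and 1230 with OHT. Mean values were higher with OHT in both lines, but the libraries overlapped. The log2 fold change was 0.29 (95% interval -0.20 to 0.78, limma, adjusted p = 0.512) in PRC1CKO and 0.60 (0.11 to 1.09, adjusted p = 0.102) in PRC1CPM cells. In PRC1CPM cells Rec8 was called higher with the replicate number as a block (0.60, adjusted p = 0.000199). It was also called when the spike-in was not corrected by the matched gDNA-seq (0.89, limma, adjusted p = 0.00909). The same call was made without untreated replicate 1 (0.79, adjusted p = 0.0245) or OHT-treated replicate 2 (0.74, adjusted p = 0.0482).

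A list of 16 tested cohesin genes held the shared and mitotic subunits, the loaders and releasers, and Rad21l, which encodes another meiotic kleisin. In each line 1 was called higher, Rad21l, and none of the shared or mitotic genes was called. Rad21l rose from 15.0 ± 8.47 to 63.6 ± 2.47 normalised reads in PRC1CKO cells (log2 fold change 2.16, limma, adjusted p = 0.00037) and from 8.16 ± 2.73 to 57.1 ± 21.2 in PRC1CPM cells (2.65, adjusted p = 2.9e-05). The median of the list was -0.10 and -0.07.

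Spo11, whose product makes the double-strand breaks that start recombination, was close to the limit of detection (NM_001083959, 12 exons, chr2:172979842-172993576, plus strand). It had 6, 7 and 4 reads in untreated and 4, 12 and 4 in OHT-treated PRC1CKO cells, and 12, 10 and 4 in untreated and 26, 12 and 21 in OHT-treated PRC1CPM cells. The highest values came from OHT-treated PRC1CPM cells, yet treated and untreated libraries overlapped in both lines. Over 3 libraries there were 17 untreated and 20 OHT-treated reads in PRC1CKO cells, and 26 and 59 in PRC1CPM cells. Divided by the summed size factors of those libraries, these were 5.39 (exact Poisson 95% interval, which covers counting error only, 3.14 to 8.63) and 6.00 (3.67 to 9.27) normalised reads in PRC1CKO cells, and 10.1 (6.58 to 14.8) and 18.2 (13.9 to 23.5) in PRC1CPM cells. The intervals of treated and untreated cells overlapped in both lines, and those of the OHT-treated lines did not, although their libraries did. Over libraries the log2 fold changes were -0.05 (95% interval -1.31 to 1.21) and 0.85 (-0.41 to 2.11), and neither was called by limma.

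Dmc1 encodes the meiotic recombinase (NM_001278226, 12 exons, chr15:79561498-79605109, minus strand). Normalised read counts ran from 1227 to 2130 in untreated and 1140 to 1841 in OHT-treated PRC1CKO cells, and from 1475 to 2340 and 1463 to 2512 in PRC1CPM cells. The ranges overlapped widely. The log2 fold changes were -0.10 (95% interval -0.58 to 0.37) and -0.02 (-0.49 to 0.46).

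The genes that act with Spo11 and Dmc1 were more mixed. Among 6 tested genes of break formation, 3 were called higher in PRC1CKO and 3 in PRC1CPM cells, and none lower. Mei1, which is needed for the breaks, rose by log2 fold changes of 3.02 and 2.60. Ccdc36 (Iho1), which joins the break machinery to the axis, rose by 1.63 and 0.96. Gm960 (Top6bl), whose product is the partner subunit of SPO11, rose by 1.33 and 1.23. In PRC1CPM cells the call of Ccdc36 was lost without untreated replicate 2 or OHT-treated replicate 1 or 3 (0.79 to 0.89, adjusted p from 0.0556 to 0.0754).

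Of 11 tested genes of strand exchange, 1 was called higher and 2 lower in PRC1CKO cells, and 1 and 2 in PRC1CPM cells. Spata22 rose by 1.31 and 1.36. Its call was lost in PRC1CKO cells without OHT-treated replicate 1 (1.18, adjusted p = 0.059) and in PRC1CPM cells without untreated replicate 3 or OHT-treated replicate 1 (1.06 to 1.20, adjusted p from 0.0545 to 0.101). Meiob, the binding partner of SPATA22, had log2 fold changes of -1.03 and -1.01, and Hsf2bp, which acts with BRCA2, of -0.83 and -0.94, all called lower. In PRC1CPM cells these calls were lost without the gDNA-seq correction, for Meiob at -0.72 (limma, adjusted p = 0.138) and for Hsf2bp at -0.64 (adjusted p = 0.085). The call of Meiob was also lost without untreated replicate 1 (-0.68 in PRC1CKO and -0.81 in PRC1CPM cells) or 3 (-0.997 and -0.90), and without OHT-treated replicate 2 (-0.94 and -0.74) or 3 (-1.01 and -0.96). It was lost as well without the filter on low reads (adjusted p = 0.072 and 0.0955) and, in PRC1CPM cells, with a pseudocount of 0.1 (adjusted p = 0.0504). That of Hsf2bp was lost in PRC1CKO cells without OHT-treated replicate 2 (-0.61, adjusted p = 0.126).

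Among 8 tested crossover genes, 1 was called higher in each line, Tex11, which encodes a protein of recombination sites. It went from 517 ± 23.1 to 2562 ± 403 normalised reads in PRC1CKO cells (log2 fold change 2.29, limma, adjusted p = 5.7e-12) and from 493 ± 28.9 to 2011 ± 346 in PRC1CPM cells (2.01, adjusted p = 7.2e-10). Of 8 tested genes of telomere attachment and the meiotic checkpoint, 2 were called higher in PRC1CKO and 0 in PRC1CPM cells. They were Spdya (1.32), an activator of CDK2, and Ccdc79 (0.88, also named Terb1), which ties telomeres to the nuclear envelope. The call of Spdya was lost without untreated replicate 3 (0.96, adjusted p = 0.14). That of Ccdc79 was lost without untreated replicate 3 or OHT-treated replicate 1, 2 or 3 (0.67 to 0.96, adjusted p from 0.0511 to 0.197) and without the gDNA-seq correction (0.72, adjusted p = 0.146). In PRC1CPM cells their values were 1.06 (limma, adjusted p = 0.0597) and 0.62 (adjusted p = 0.183). The test of edgeR called Spdya there too (1.13, adjusted p = 0.0372), as did DESeq2 (1.13, adjusted p = 0.0272). With any untreated PRC1CKO library, untreated PRC1CPM replicate 1 or OHT-treated PRC1CPM replicate 2 left out, limma called Spdya as well (1.06 to 1.38, adjusted p from 0.0219 to 0.0489). With the replicate number as a block it called both genes (Spdya 1.06, adjusted p = 0.00103, Ccdc79 0.62, adjusted p = 0.0089). Without the gDNA-seq correction limma called both there as well (Spdya 1.35, adjusted p = 0.00864, Ccdc79 0.92, adjusted p = 0.0367). With TMM scaling limma called Spdya (0.96, adjusted p = 0.0179). No difference between the lines in this response was called for either gene.

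**Figure D3:**
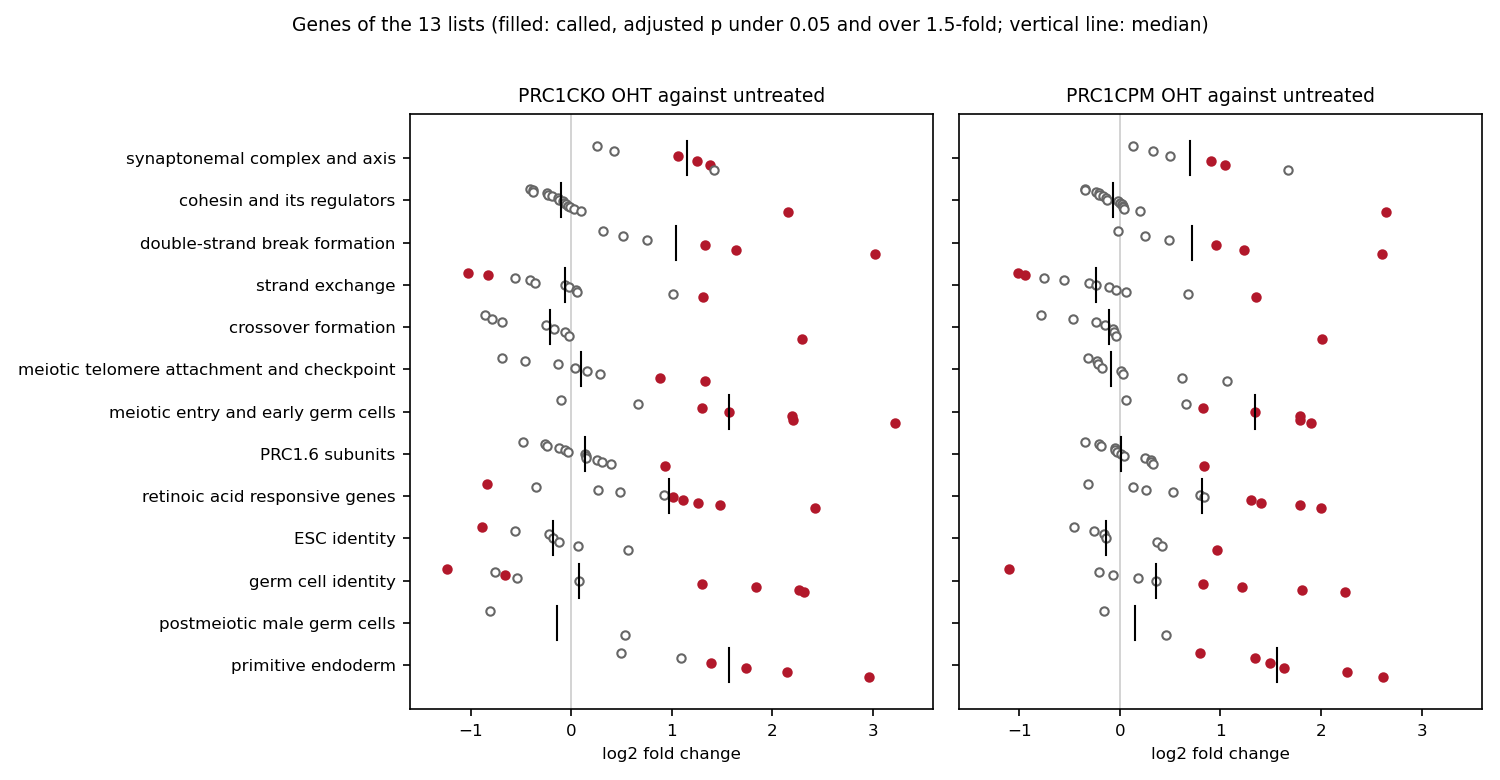
Log2 fold change (horizontal axes) of every tested gene of 13 lists after OHT treatment in PRC1CKO (left) and PRC1CPM cells (right), with filled points for called genes and a vertical line at each list's median. In the list of meiotic entry and early germ cells the medians are the values of Tex15 (1.57) and Mael (1.35), whereas those of cohesin genes lie near 0, with Rad21l as a lone filled point.

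Stra8, the regulator of meiotic entry, rose in both lines (NM_009292, 9 exons, chr6:34920960-34939342, plus strand, with a start 12 bases inside that of RefSeq). Its normalised read counts in PRC1CKO cells were 1001, 676 and 972 untreated and 1554, 1644 and 1866 with OHT. In PRC1CPM cells they were 744, 507 and 744 untreated and 1833, 1298 and 2071 with OHT. No OHT-treated library overlapped an untreated one, and the OHT-treated libraries of the lines overlapped each other. Its log2 fold change was 0.95 ± 0.23 (limma, adjusted p = 0.00148) in PRC1CKO and 1.38 ± 0.23 (adjusted p = 1.1e-05) in PRC1CPM cells. When the test was against a 1.5-fold change instead of no change, Stra8 was called in PRC1CPM (adjusted p = 0.0156) but not in PRC1CKO cells (adjusted p = 0.423).

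Of 7 tested genes in a list of meiotic entry and early germ cells, 5 were called higher in PRC1CKO and 5 in PRC1CPM cells, and none lower. Tex101, a surface protein of germ cells, rose by log2 fold changes of 3.22 and 1.90. Taf7l, a germ cell variant of a general transcription factor, rose by 2.21 and 1.79. Mael, which acts in transposon silencing, rose by 2.20 and 1.35, and Tex15, which acts in the same process, by 1.57 and 1.79. The fifth was Dazl, described with the germ cell markers. Gm1564 (Meioc) and Ythdc2, which act in meiotic entry itself, were not called, with values of 0.66 and 0.66 and of -0.10 and 0.07. With the replicate number as a block Gm1564 was called higher in PRC1CPM cells (limma, adjusted p = 7.8e-06), as it was without the gDNA-seq correction (0.95, adjusted p = 0.00292) and with any of 4 single libraries left out, and in PRC1CKO cells (adjusted p = 0.0537) with any of 7. Both were named after their values were seen. Over the 7 meiotic and cohesin lists 62 genes were tested. The lists were chosen with earlier results of these data known, so that their shares beside those of all transcripts are descriptions. In PRC1CKO cells 16 (25.8%) were called higher and 2 lower, beside 16.5% and 3.09% of all transcripts, and in PRC1CPM cells 13 (21%) higher and 2 lower, beside 13.1% and 1.4%. Those 13 were called higher in both lines. Without the list of meiotic entry and early germ cells, 11 of 55 (20%) were called higher in PRC1CKO and 8 (14.5%) in PRC1CPM cells, closer to the 16.5% and 13.1% of all transcripts. Of the 62, in the test against a 1.5-fold change 9 and 7 were called higher and 0 lower. The counts of genes called lower rested on few libraries. In PRC1CKO cells the count was 0 without OHT-treated replicate 2, 1 without untreated replicate 1 or 3 or OHT-treated replicate 3, 4 without untreated replicate 2, 5 by DESeq2 and 1 without the filter. In PRC1CPM cells it was 1 without untreated replicate 1 or 3 or OHT-treated replicate 2 or 3, 1 without the filter or with a pseudocount of 0.1, 0 without the gDNA-seq correction and 4 with the replicate number as a block.

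Genes that answer to retinoic acid, the inducer of Stra8, were read beside it. Of 10 tested, 5 were called higher and 1 lower in PRC1CKO cells, and 4 and 0 in PRC1CPM cells. Aldh1a2, which makes retinoic acid, rose by log2 fold changes of 2.42 and 2.00. Cyp26b1, which degrades it, rose by 1.48 and 1.79. Cyp26a1, another degrading enzyme, and Stra6, a retinol transporter, were called in PRC1CKO cells (1.26 and 1.11), and had values of 0.84 (limma, adjusted p = 0.229) and 0.80 (adjusted p = 0.133) in PRC1CPM cells. In PRC1CKO cells the call of Cyp26a1 was lost by edgeR (1.10, adjusted p = 0.0584), by DESeq2 (1.08, adjusted p = 0.0932), without the filter (adjusted p = 0.082) and without untreated replicate 2 or 3 or OHT-treated replicate 1 or 3 (0.84 to 1.23, adjusted p from 0.066 to 0.184). That of Stra6 was lost without the gDNA-seq correction (adjusted p = 0.0508) and without untreated replicate 3 or OHT-treated replicate 1 (0.83 to 0.85, adjusted p from 0.155 to 0.167). In PRC1CPM cells both were called with the replicate number as a block (Cyp26a1 0.84, adjusted p = 0.0134, Stra6 0.80, adjusted p = 0.00196), without the gDNA-seq correction (1.13, adjusted p = 0.0367 and 1.09, adjusted p = 0.0162) and without untreated replicate 1 (1.22, adjusted p = 0.0342 and 1.01, adjusted p = 0.0403). The gene called lower was Rara (-0.84), a retinoic acid receptor, named after its value was seen. The part of these genes in the rise of Stra8 was not tested.

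Levels of the 10 genes were compared per kilobase of the genomic span. In untreated PRC1CKO cells Stag3 was highest, at 133 ± 18.2 normalised reads per kilobase of span, followed by Rec8 (89.2 ± 18.9), Sycp3 (68.4 ± 8.57), Stra8 (48.0 ± 9.78), Dmc1 (38.1 ± 10.4), Smc1b (19.7 ± 4.45), Hormad1 (8.22 ± 2.43), Sycp2 (7.96 ± 1.07), Sycp1 (1.94 ± 0.506) and Spo11 (0.430 ± 0.205). By their SDs, Rec8 was not apart from Sycp3, nor Stra8 from Dmc1, nor Hormad1 from Sycp2. With OHT, Sycp2 moved from place 8 to place 5 of 10 in PRC1CKO cells (37.5 ± 4.76, not apart from Dmc1 at 35.3 ± 8.26) and Sycp1 from place 9 to place 8 (13.1 ± 2.12, not apart from Smc1b at 13.5 ± 2.28). In PRC1CPM cells Sycp1 kept place 9 (2.92 ± 0.234 untreated and 8.34 ± 1.39 with OHT).

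The order depended on the length used. Per kilobase of RefSeq exon, Rec8, which is compact, stood at place 6 in untreated PRC1CKO cells and not at place 2. On that scale Stag3 had 1003 ± 137 normalised reads per kilobase of exon, Sycp3 832 ± 104, Dmc1 808 ± 220.1 and Sycp1 66.5 ± 17.3. With OHT, Stra8 came first in both lines, at 1149 ± 109 and 1181 ± 269.6, but in PRC1CPM cells it was not apart from Dmc1 (941 ± 259) or Stag3 (856 ± 162). Spo11 was last on both scales in all 4 conditions.

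**Figure D4:**
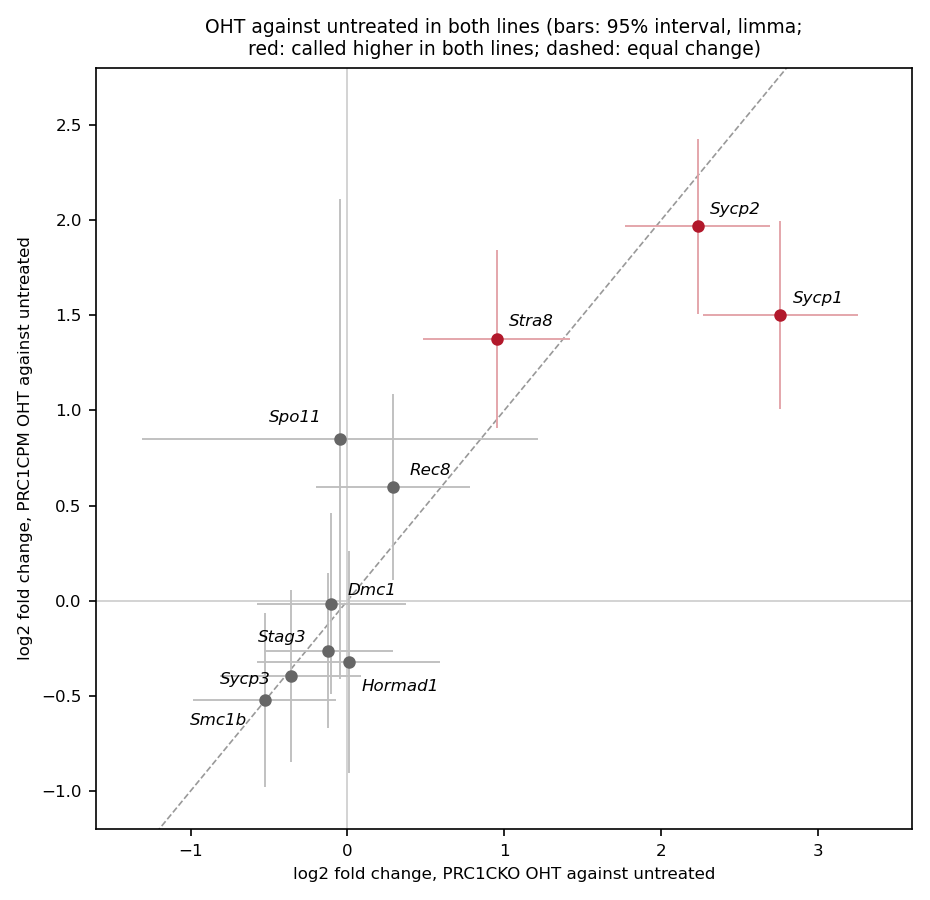
Log2 fold change of the 10 genes after OHT treatment in PRC1CKO (horizontal axis) and PRC1CPM cells (vertical axis), with 95% intervals from limma and a dashed line of equal change. Sycp1, Sycp2 and Stra8 (red) were called higher in both lines, with Sycp1 below the dashed line, and the other 7 genes (grey) lie nearer to 0.

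Whether loss of catalysis moved these genes as far as loss of the complex was tested by the interaction of line and treatment. None of the 10 genes was called, where 0.0% of all transcripts were called higher and 0.0236% lower. At an unadjusted p under 0.05, limma gave 1 of the 10, Sycp1, beside 2.93% of all transcripts in either direction. Under the rule for calls, edgeR and DESeq2 also called 0. The interaction of Sycp1 was -1.26 ± 0.35 on the log2 scale (95% interval -1.96 to -0.56, limma, adjusted p = 0.475), a smaller rise in PRC1CPM cells by its value. Both a higher untreated level (0.61) and a lower OHT-treated level (-0.64) in PRC1CPM than in PRC1CKO cells enter this value. Neither difference was called in the main fit, and genotype and clone cannot be told apart in it. Sycp1 was called with TMM scaling (-1.25, limma, adjusted p = 0.018) and when untreated PRC1CKO replicate 1 was left out (-1.46, adjusted p = 0.0314). With the replicate number as a block it was called too (-1.26, limma, adjusted p = 4.1e-06), where the count over all transcripts went from 0 higher and 4 lower to 78 and 246. Sycp2 had -0.27 (95% interval -0.92 to 0.38) and Stra8 0.43 (-0.23 to 1.09). The other 7 genes lay between -0.33 (Hormad1) and 0.90 (Spo11). The median was -0.01 for the 10 genes and -0.02 for all transcripts.

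OHT-treated PRC1CPM cells were set against OHT-treated PRC1CKO cells, which uses the same libraries as the comparisons above. None of the 10 genes was called higher or lower by limma, edgeR or DESeq2, beside 1.25% and 0.218% of all transcripts by limma. At an unadjusted p under 0.05, limma gave 4 higher (Hormad1, Rec8, Smc1b and Spo11) and 1 lower (Sycp1). Over all transcripts the share at that threshold was 11% in either direction. The libraries did not overlap for Sycp3, Smc1b, Hormad1 and Rec8, higher in PRC1CPM cells (11.9% of all transcripts in this direction), and for Sycp1 and Sycp2, lower (4.35%). The log2 difference was 0.77 (limma, adjusted p = 0.106) for Rec8, 0.72 (adjusted p = 0.102) for Smc1b, 0.72 (adjusted p = 0.275) for Hormad1, -0.64 (adjusted p = 0.223) for Sycp1 and -0.41 (adjusted p = 0.543) for Sycp2. It was 1.56 for Spo11 (95% interval 0.30 to 2.82, limma, adjusted p = 0.272), at 4 to 26 reads a library, and was called by edgeR with the replicate number as a block (adjusted p = 0.047). With the replicate number as a block, limma called Rec8 (adjusted p = 4.3e-06), Smc1b (adjusted p = 6.5e-06) and Hormad1 (adjusted p = 0.00118) higher and Sycp1 (adjusted p = 0.000585) lower, at the same log2 differences, and called 1131 of all transcripts higher and 232 lower in place of 212 and 37. With TMM scaling, limma called Rec8 (0.67, adjusted p = 0.00834) and Smc1b (0.61, adjusted p = 0.0178) higher and Sycp1 lower (-0.75, adjusted p = 0.00291). Rec8 and Smc1b were also called when untreated PRC1CKO replicate 1 was left out (Rec8 0.77, adjusted p = 0.0441, Smc1b 0.72, adjusted p = 0.044), and Smc1b without OHT-treated PRC1CPM replicate 2 (0.86, adjusted p = 0.0464). The count of transcripts called higher moved to 399 or 339 without untreated PRC1CKO replicate 1 or 2, 99 without OHT-treated PRC1CKO replicate 2, 358 or 343 without untreated PRC1CPM replicate 1 or 2 and 81 or 134 without OHT-treated PRC1CPM replicate 1 or 3. The median difference was 0.28 for the 10 genes and 0.10 for all transcripts.

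Before treatment, Hormad1 was higher in PRC1CPM than in PRC1CKO cells, by 1.05 ± 0.29 on the log2 scale (limma, adjusted p = 0.0334). It was the 1 gene of 10 called higher, beside 2.21% of all transcripts. None was called lower by limma, edgeR or DESeq2, or passed in that direction at an unadjusted p under 0.05, beside 0.478% of all transcripts called lower by limma. Higher at that threshold by limma were 3 (Hormad1, Smc1b and Sycp1), beside 14.1% of all transcripts in either direction. The libraries did not overlap for Sycp1, Smc1b and Hormad1, higher in PRC1CPM cells (9.23% of all transcripts), and for no gene in the other direction (2.55%). Smc1b had a log2 difference of 0.71 (limma, adjusted p = 0.076) and Sycp1 of 0.61 (adjusted p = 0.199). With the replicate number as a block both were called higher too (Smc1b adjusted p = 6.0e-06, Sycp1 adjusted p = 0.000854), as were 1631 of all transcripts in place of 374, with 253 lower in place of 81. The count of transcripts called higher moved to 1492, 219 or 170 without untreated PRC1CKO replicate 1, 2 or 3, and to 208, 616 or 248 without untreated PRC1CPM replicate 1, 2 or 3. The call of Hormad1 was lost without the gDNA-seq correction (0.77, adjusted p = 0.3), and without untreated PRC1CKO replicate 2 (0.77, adjusted p = 0.281) or 3 (1.18, adjusted p = 0.0553) or untreated PRC1CPM replicate 1 (0.997, adjusted p = 0.0767) or 3 (0.86, adjusted p = 0.211). Without untreated PRC1CKO replicate 1, Smc1b (0.81, adjusted p = 0.0193) and Sycp1 (0.81, adjusted p = 0.0243) were called higher too, as was Smc1b without untreated PRC1CPM replicate 2 (0.84, adjusted p = 0.038). The median difference was 0.36 for the 10 genes and 0.12 for all transcripts.

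Chromosome 6, which carries Stra8, stood apart between the lines. Its 852 tested transcripts had a median 0.19 above that of all transcripts in untreated and 0.20 above it in OHT-treated PRC1CPM against PRC1CKO cells. The other chromosomes that carry these genes (2, 3, 5, 10, 14 and 15) lay between -0.05 and -0.01 of it. Stra8 itself differed by -0.41 untreated and 0.02 with OHT, and the part of the chromosome in these values was not tested.

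Subunits of PRC1.6 were read as the complex that represses germline genes in ESCs. Of 13 tested, 1 was called higher in PRC1CKO and 1 in PRC1CPM cells, and none lower. It was E2f6, the subunit that binds E2F motifs, which rose from 477 ± 86.8 to 899 ± 28.9 normalised reads in PRC1CKO cells (log2 fold change 0.93, limma, adjusted p = 0.00254) and from 447 ± 60.8 to 799.8 ± 133 in PRC1CPM cells (0.83, adjusted p = 0.00982). In PRC1CPM cells its call was lost without untreated replicate 3 or OHT-treated replicate 3 (0.77 in each case, adjusted p from 0.0685 to 0.0724). The other 12 subunits lay between -0.48 and 0.40 in PRC1CKO and between -0.35 and 0.33 in PRC1CPM cells.

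Markers of germ cells moved in the same libraries. Of 9 tested, 4 were called higher and 2 lower in PRC1CKO cells, and 4 and 1 in PRC1CPM cells. Tdrd1 and Piwil2, of the piRNA pathway, rose by log2 fold changes of 2.31 and 2.24, and of 1.84 and 1.22. The germ cell RNA helicase gene Ddx4 rose by 2.26 and 1.81, and Dazl, an RNA-binding protein gene that also stands in the list of meiotic entry, by 1.30 and 0.83. The call of Dazl in PRC1CPM cells was lost without untreated replicate 1 or OHT-treated replicate 3 (0.61 to 0.66, adjusted p from 0.0788 to 0.187). The genes called lower, named after their values were seen, were Prdm1 (-1.24 and -1.10) in both lines and Tfap2c in PRC1CKO cells (-0.66), which specify primordial germ cells. The call of Prdm1 was lost in PRC1CPM cells without the gDNA-seq correction (-0.81, adjusted p = 0.0628), and that of Tfap2c without untreated replicate 2 or OHT-treated replicate 1, 2 or 3 (-0.69 to -0.56, adjusted p from 0.0713 to 0.143). Summed over the list, normalised read counts were 4257, 3842 and 3845 in untreated and 7304, 7355 and 7772 in OHT-treated PRC1CKO cells, and 4138, 4083 and 4160 in untreated and 8212, 6055 and 7694 in OHT-treated PRC1CPM cells. Ddx4 was the most abundant marker with OHT (2558 ± 26.1 and 2033 ± 435). Their part in the rise of the 3 genes was not tested.

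Of 7 postmeiotic markers of male germ cells in the table, Ldhc and Spaca1 passed the filter, with 301 and 126 reads over all 12 libraries and reads in each. Neither was called, Ldhc with log2 fold changes of -0.81 and -0.16. Tnp1, Tnp2, Prm1 and Acrv1, for proteins of the sperm head, had 6, 2, 3 and 4 reads in all, and Odf1, for the sperm tail, had 18. The summed level was 45, 23 and 24 normalised reads in untreated and 23, 18 and 37 in OHT-treated PRC1CKO cells. In PRC1CPM cells it was 54, 31 and 77 untreated and 43, 39 and 64 with OHT.

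Markers of ESCs were abundant, with condition means of 3126 to 11600 normalised reads over Pou5f1, Nanog, Sox2, Zfp42, Esrrb, Klf4 and Tbx3. Sox2 had log2 fold changes of -0.89 (called lower) in PRC1CKO and -0.45 (limma, adjusted p = 0.136) in PRC1CPM cells. Tbx3 had 0.56 (adjusted p = 0.0394, under 1.5-fold, but called when untreated or OHT-treated replicate 1 was left out) and 0.97 (called higher). In the response to OHT, no difference between the lines was called for either gene. Before treatment Tbx3 was called lower in PRC1CPM than in PRC1CKO cells (-0.94, limma, adjusted p = 0.00319). The sums of the 7 markers were 60927, 49651 and 47327 in untreated and 44382, 48749 and 51121 in OHT-treated PRC1CKO cells, and 47207, 40574 and 40954 in untreated and 50224, 34680 and 52360 in OHT-treated PRC1CPM cells. Markers of primitive endoderm, a lineage that ESC cultures can form, rose with OHT, 4 of 6 in PRC1CKO and 6 of 6 in PRC1CPM cells. Gata6 had log2 fold changes of 2.96 and 2.26, Gata4 of 2.14 and 1.63, Pdgfra of 1.74 and 1.49, and Sox17 of 1.39 and 1.35. The call of Sox17 was lost in PRC1CKO cells without the gDNA-seq correction (adjusted p = 0.0588) and without untreated replicate 3 or OHT-treated replicate 1 or 2 (0.96 to 1.39, adjusted p from 0.0604 to 0.226), and in PRC1CPM cells without the filter (adjusted p = 0.0622) and without untreated replicate 1 or 3 or OHT-treated replicate 1 or 2 (1.03 to 1.38, adjusted p from 0.0668 to 0.157). Dab2, named after its values were seen, had 0.50 and 0.80, and its call in PRC1CPM cells was lost by DESeq2 (adjusted p = 0.0514), without the filter (adjusted p = 0.0829), with a pseudocount of 0.1 (adjusted p = 0.0564) and without untreated replicate 3 or OHT-treated replicate 1 or 3 (0.60 to 0.84, adjusted p from 0.0685 to 0.303). In PRC1CKO cells Dab2 was called higher without untreated replicate 1 (0.85, limma, adjusted p = 0.0149). Summed normalised read counts were 1792, 1013 and 649 in untreated and 4324, 3329 and 3094 in OHT-treated PRC1CKO cells, and 816, 705 and 693 in untreated and 2278, 1516 and 1979 in OHT-treated PRC1CPM cells. By reads, with length not taken into account, the highest mean was that of Pdgfra in OHT-treated PRC1CKO cells (1128 ± 249.7), not apart from that of Gata6 (1102 ± 232). In the other 3 conditions it was that of Dab2, within the SDs of Pdgfra in untreated PRC1CKO cells (396 ± 187 against 359.9 ± 183) and in OHT-treated PRC1CPM cells (559.6 ± 91.2 against 549 ± 129). None of the 6 was at 0 in any library. Whether such cells were present, and any part of theirs in the rise of Sycp1, Sycp2 and Stra8, was not tested.

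Over the 12 libraries the 10 genes did not share a single pattern. On log2 values, Pearson's r was 0.96 between Sycp1 and Sycp2, 0.90 between Stra8 and Sycp2, 0.89 between Hormad1 and Smc1b and -0.72 between Stra8 and Sycp3. These are descriptions over libraries that share conditions and scale. With the mean pattern of the 10 genes (the mean of their z-scores), r ran from 0.22 (Sycp3) to 0.85 (Rec8). The 5 transcripts most like this mean pattern over 12 libraries were Fbf1 (r = 0.98), Igsf8 (0.97), Ttyh2 (0.97), Fdxr (0.97) and Copa (0.97). Their log2 fold changes with OHT lay between 0.04 and 0.30. The mean pattern itself had r = 0.81 with the log2 mean level of all rows, the scale of each library.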

How the data were processed

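RNA was sequenced from 12 cRNA-seq libraries with Drosophila SG4 cells spiked in, as total RNA depleted of rRNA. Per the paper's methods, the authors aligned reads to mm10 and the dm6 spike-in genome with STAR and Bowtie2, removed duplicates with Sambamba, counted unique reads over a non-redundant refGene set and divided them by DESeq2 size factors from the spike-in, corrected by matched gDNA-seq. The deposited normalised read counts are thus a signal (coverage of a transcript in spike-in units), from which whole reads were recovered for 100% of values (tolerance 0.02). The deposited table also holds the authors' adjusted p-values and log2 fold changes, which were not used, nor was a list of genes drawn from them. All 12 library columns were used, and 0 were left out. The 12 gDNA-seq samples were not analysed here beyond their recorded spike-in ratios.

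limma 3.58.1 (R 4.3.3) was fitted to log2(normalised read count + 1) with trended variances and 4 condition means, on transcripts that reached 10 reads in 3 or more libraries, with Benjamini-Hochberg adjustment over all of them. edgeR 4.0.16 and DESeq2 1.42.0 on recovered reads were alternatives, tested like limma on simulated data. Deviations from the condition means were correlated between same-numbered libraries, at 0.205 on average, and at -0.102 between libraries with different numbers, none of whose 36 pairs was over 0.1. All 3 same-numbered pairs were over 0.1 in PRC1CPM cells, between OHT-treated lines and between untreated lines, so these were taken as paired from the data, the labels not saying what a number marks. In PRC1CKO cells 1 pair was at 0.0988, and there the numbers were not taken to pair the samples. The interaction is both the difference between these 2 treatments and that between the paired comparisons of lines, and its blocked value is given beside it. Members and lists were chosen with earlier results of these data known. From each list up to 4 genes were named, those called in PRC1CKO cells with the largest absolute change, filled up from those called in PRC1CPM cells, or the most changed gene where none was called. Listed genes not matched in the table, such as Six6os1, Ankrd31, Rnf212, Meiosin and Prm2, were not analysed here.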

Additional observations from a re-analysis of the deposited data

How the results depend on the processing

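The count of called genes was 3 higher in each line under all alternatives but the test against a 1.5-fold change (2 in PRC1CKO cells), a scaling without the gDNA-seq correction (4 in PRC1CPM cells), a replicate block alone or with edgeR (4 and 4 in PRC1CPM cells, Rec8 being added) and single left-out libraries (3 to 4 in PRC1CPM cells). In each line 0 were called lower, but 1 and 1 with TMM, 1 and 1 with TMM and a replicate block, and 0 to 1 in PRC1CKO cells with a library left out (untreated replicate 2). Between OHT-treated lines 0 were called higher, but 2 with TMM, 2 without the gDNA-seq correction, 2 from the 6 compared libraries alone and 0 to 2 with a library left out. They were 3 with a replicate block, 3 with block and TMM, and 4 with block and edgeR. The count lower was 0, but 1 with TMM and 1 with each block. Between untreated lines 1 was called higher, but 2 with TMM or with block and TMM, 3 with the block alone or with edgeR, and 0 to 3 with a library left out. It was 0 without the gDNA-seq correction, without the filter, at an adjusted p under 0.01, in the test against 1.5-fold and from the compared libraries alone. In the interaction 0 were called, but 1 with TMM, 1 with each block and 0 to 1 with a library left out, which was Sycp1 each time (adjusted p = 4.1e-06 with the block alone).

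Values that changed sign were those of genes not called by the main fit in the comparison concerned. Hormad1 in PRC1CKO cells had -0.11 with TMM, also with the block, -0.14 without the gDNA-seq correction, -0.026 by edgeR, -0.026 by DESeq2, and -0.26 to 0.15 with a library left out. Spo11 in PRC1CKO cells had 0.11 by edgeR, 0.093 by DESeq2, 0.12 by edgeR with the block and -0.52 to 0.25 with a library left out. In PRC1CPM cells without the gDNA-seq correction, which raised the median of all transcripts to 0.39, Dmc1 had 0.28, Stag3 0.034 and Ldhc 0.13, and the interaction of Sycp2 was 0.18. With a library left out, Dmc1 had -0.30 to 0.10 in PRC1CKO and -0.22 to 0.17 in PRC1CPM cells, where Hormad2 had -0.028 to 0.26 and Ldhc -0.59 to 0.30. Ythdc2 in PRC1CPM cells had -0.0404 with TMM, -0.0404 with TMM and the block, and -0.0071 to 0.21 with a library left out. The cause of these changes was not tested.

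With the replicate block the count over all transcripts went from 2787 higher and 524 lower to 3435 higher and 823 lower in PRC1CKO cells, from 2226 higher and 237 lower to 3033 higher and 461 lower in PRC1CPM cells, from 212 higher and 37 lower to 1131 higher and 232 lower between OHT-treated lines, from 374 higher and 81 lower to 1631 higher and 253 lower between untreated lines and from 0 higher and 4 lower to 78 higher and 246 lower in the interaction. With TMM it was 2845 higher and 1133 lower in PRC1CKO, 2396 higher and 595 lower in PRC1CPM cells, 524 higher and 261 lower and 745 higher and 305 lower between OHT-treated and untreated lines and 0 higher and 14 lower in the interaction. Without the gDNA-seq correction it was 2132 higher and 666 lower, 3428 higher and 68 lower, 441 higher and 21 lower, 130 higher and 148 lower and 2 higher and 1 lower, and in the test against 1.5-fold 1436 higher and 84 lower, 951 higher and 32 lower, 28 higher and 4 lower and 51 higher and 5 lower. At an adjusted p under 0.01 it was 2139 higher and 304 lower, 1576 higher and 108 lower, 98 higher and 16 lower, 154 higher and 32 lower and 0 higher and 1 lower. Of the 62 listed meiotic genes, 17 and 14 were called higher and 7 and 4 lower with TMM. With a library left out, the count ran over 2016 to 3729 higher and 326 to 674 lower in PRC1CKO and 1439 to 2547 higher and 123 to 339 lower in PRC1CPM cells, 81 to 399 higher and 17 to 78 lower between OHT-treated and 170 to 1492 higher and 46 to 105 lower between untreated lines and 0 to 1 higher and 1 to 28 lower in the interaction. The block changed no other call of the 10 genes or, in PRC1CPM cells, of the named list genes than those given with it above. For Smc1b and Sycp3 in PRC1CPM cells it could add none on the spike-in scale, since their changes were under 1.5-fold. Each symbol had 1 row, so that another choice of row could not be tried. The number of libraries, 3 a condition from 1 clone a line, limits the precision.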
